A study of Homo sapiens with 4 samples.

Results

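The genes described here are 60 genes of E2F transcription factors, G1/S control and DNA replication, taken by their gene symbol on the array, of 18336 genes measured in all. They fall into 22 genes of E2F, RB and cyclin-CDK control, 13 genes of origin licensing and 25 genes of proteins at the replication fork, the last with SLBP and UHRF1. All 60 had a probe and all 60 lay above the limit for dim genes. All arrays measured DLD-1 cells, a cell line established from a human colorectal adenocarcinoma. The vector group carried pCMV6-AC-GFP and the HMGA2 group carried a tGFP-tagged pCMV6-HMGA2 plasmid, so both plasmids were of the pCMV6 type. Both were made as stable clones under the antibiotic G418, selected at 1 mg/mL and kept at 0.5 mg/mL, and otherwise untreated. The number of clones behind each line is not stated in the labels. Each group had 2 single-colour arrays, 4 in all, and nothing in the labels says that those of a group came from separate cultures. The p-values therefore rest on how far these arrays of a group lay apart, and that distance may be purely technical.

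E2F factors with their DP partners switch on the genes that a cell needs to enter S phase, and the pocket proteins RB1, RBL1 and RBL2 hold them silent until cyclin-CDK complexes phosphorylate the pocket proteins. The origin recognition complex, CDC6 and CDT1 load the MCM helicase onto origins. CDC45 and the GINS complex turn the loaded MCM into a moving helicase at which polymerases, clamp and clamp loader assemble. In colorectal tumours these genes are known as part of the expression signature of dividing cells. HMGA2 is an AT-hook chromatin protein, and in the mouse pituitary it has been described to bind RB and to raise E2F1 activity, so the E2F and RB genes are a natural place to ask what differs between these lines.

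The E2F motif in the promoter is the feature by which many of these genes are recognised, and its letters are shown here for the members that were called higher or lower under both scalings of the arrays described below. The motif was searched on both strands as TTTCCCGC, TTTCGCGC, TTTGCCGC or TTTGGCGC in RefSeq promoter windows, from 250 bases before to 50 after each gene start (build GRCh38.p14). Letters in capitals mark the matches, and each line runs 5′ to 3′ on the strand of the gene. The first 5 genes were higher on the arrays labelled HMGA2, the next 6 were lower, and PCNA and MCM6 were not called.
E2F1 (chr20:33686386-33686438, minus strand): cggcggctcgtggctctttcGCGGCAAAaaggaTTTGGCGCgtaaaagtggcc
TFDP1 (chr13:113584613-113584660, plus strand): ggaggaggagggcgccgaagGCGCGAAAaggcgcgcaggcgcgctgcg
CDC6 (chr17:40287875-40287904, plus strand): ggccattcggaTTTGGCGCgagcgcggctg
POLA2 (chr11:65261889-65261936, plus strand): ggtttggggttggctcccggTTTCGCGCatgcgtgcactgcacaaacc
GINS2 (chr16:85688958-85689005, minus strand): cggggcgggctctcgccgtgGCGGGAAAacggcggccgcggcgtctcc
E2F2 (chr1:23531248-23531295, minus strand): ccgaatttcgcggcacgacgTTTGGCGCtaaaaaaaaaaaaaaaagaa
E2F3 (chr6:20401806-20401853, plus strand): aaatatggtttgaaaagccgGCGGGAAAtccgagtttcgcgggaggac
CDC25A (chr3:48188434-48188481, minus strand): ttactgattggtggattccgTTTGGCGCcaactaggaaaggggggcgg
GMNN (chr6:24775313-24775360, plus strand): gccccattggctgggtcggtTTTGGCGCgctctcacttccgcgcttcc
POLA1 (chrX:24693761-24693808, plus strand): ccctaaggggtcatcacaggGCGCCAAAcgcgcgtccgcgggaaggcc
GINS3 (chr16:58392455-58392484, plus strand): cgtccccgggcGCGGGAAAcgagtttcaat
PCNA (chr20:5126654-5126701, minus strand): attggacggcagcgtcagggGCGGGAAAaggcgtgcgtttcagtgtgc
MCM6 (chr2:135876502-135876553, minus strand): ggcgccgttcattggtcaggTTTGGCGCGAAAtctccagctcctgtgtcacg

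Of the 51 members with a promoter window, 24 held at least 1 E2F match, which is 47.1%, against 6.15% of the 11179 tested genes with a window. The same letters stood in the windows of genes that were higher, lower and not called. A match was held by 5 of 10 members called higher under both scalings and by 6 of 10 called lower. It was also held by 11 of 21 called under neither scaling, and by 2 of 10 whose calls differed between the scalings. The matches of CDC6, MCM2 and GINS1 began after the gene start. Over all tested genes with a window, 6.9% of those called higher under both scalings and 6.58% of those called lower held it. E2F1, which was higher, carried a pair of matches, the first beginning 33 bases before its start. E2F2 and CDC25A, which were lower, carried the letters TTTGGCGC, also present in E2F1, beginning 42 and 44 bases before theirs. Matches on opposite strands overlap in MCM6 and MCM2, and a GC box (GGGCGG) can overlap an E2F match. The GC box was found in 39 of 51 members and in 72% of tested genes, the CCAAT box (CCAAT) in 28 of 51 and 43.1%, and the cell cycle element CHR (TTTGAA or TTCGAA) in 4 of 51 and 16.3%. A match describes letters in a window and not a bound site.

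The probe intensities are on a linear scale and are given as deposited. Median intensity over all probes was 698 and 767 on the vector arrays and 649 and 607 on the HMGA2 arrays, and the number of arrays limits the precision. Differences are log2 of HMGA2 over vector, tested with limma over 13752 genes, and a gene was called at an adjusted p under 0.05. Quantile normalization, which gives all arrays the same distribution, moved the median of all genes by 0.18 log2, from -0.09 to 0.09. Calls near the threshold therefore depend on the scaling. Values under both scalings are given for each member whose call on the brightest probe changed between them. Where no scaling is named, a value is as deposited and may not be called alike under the other. Of the 8 epithelial markers on the array, 4 rose as deposited (EPCAM, CDH1, CLDN4 and VIL1), 2 fell (KRT8 and CDX2) and 2 did not pass (KRT19 and CDX1). After quantile normalization KRT19 was called higher too (0.24, adjusted p = 0.0288). EPCAM was brightest at 234684 to 290962, while KRT8 read 4811 and 4398 on the vector arrays and 871 and 842 on the HMGA2 arrays. In contrast, 4 of 10 blood, endothelial and fibroblast markers on the array lay below the limit for dim genes. The summed intensity of the epithelial markers, most of it from EPCAM and KRT19, was 477984 to 500819 on the vector arrays and 565494 to 567743 on the HMGA2 arrays, and that of the other cell types was 7949 to 8812 and 6194 to 6780. In the latter list CD14 was brightest and was called lower (4803 and 5183, then 3175 and 3014). PDGFRB was at 0.68 log2 and was not called as deposited (adjusted p = 0.11), but was called higher after quantile normalization (0.77, adjusted p = 0.0103). Its intensities, 181 and 207, then 369 and 261, lay near the limit for dim genes. The part of these shifts in the results was not tested. HMGA2 itself did not settle the labels. Its brighter probe read 5576 and 5270 on the vector arrays and 3917 and 4369 on the HMGA2 arrays (log2 -0.39, SE 0.10, adjusted p = 0.018 in limma's fit of all probes), and did not pass after quantile normalization (-0.19, adjusted p = 0.12). Its other probe read 2728 and 3493, then 4596 and 3466 (log2 0.37, SE 0.17, adjusted p = 0.129), and 0.59 after quantile normalization (adjusted p = 0.0519). The labels do not say whether these probes can detect the transcript of the plasmid, and for this reason each group is named by the label of its arrays, HMGA2 or vector.

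Of the 60 members, 12 rose and 16 fell on the arrays labelled HMGA2 and 32 did not pass the test. That is 46.7% of members called, beside 43.6% of all genes tested, with 14.9% of all genes higher and 28.7% lower. The share of members called therefore lay near the background, and the members' median difference was -0.087 log2 beside -0.094 for all genes. The members were brighter than most genes, with a median level at percentile 75.2, and the background was not matched for brightness. After quantile normalization 18 members were higher and 11 lower, beside 28.0% and 22.6% of all genes, and the members' median was 0.07 beside 0.09. The calls held under both scalings for 12 higher and 11 lower of the 60 members, beside 14.9% and 21.9% of all genes. Over all genes, the 2051 called higher as deposited all held, and 3018 of the 3943 lower did. Calls of opposite direction were found in 0 members and in 0 of all genes. The sign of the difference changed between the scalings in 6 members that neither scaling called: E2F7, RBL2, ORC2, MCM6, GINS1 and PCNA. A difference of at least 0.5 log2 was found in 17 members, 28.3%, beside 33.0% of all genes. The groups did not overlap in 22 members that were higher and 28 that were lower on the arrays labelled HMGA2, beside 27.7% and 43.6% of all genes (71.3% in either direction). In bulk RNA a different share of cells in S phase and a different amount of each RNA per cell cannot be told apart.

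**Figure D1:**
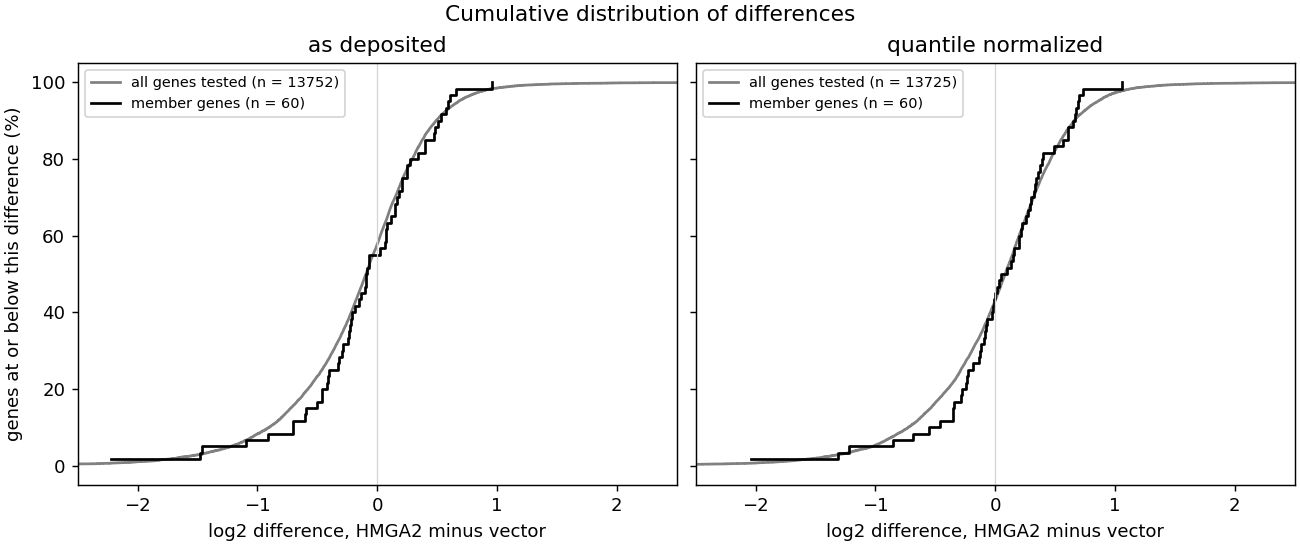
Cumulative share of genes (vertical axis, %) by log2 difference between the arrays labelled HMGA2 and vector (horizontal axis), for the 60 members in black and all tested genes in grey, as deposited on the left and quantile normalized on the right; differences beyond 2.5 in size are not drawn. The curves nearly coincide at the middle, with medians of -0.09 for both as deposited, and the members have GINS3 at -2.22 as their lowest value.

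The activator E2Fs, each measured by 1 probe, moved in different directions. E2F1, which drives S phase entry, read 4134 and 4397 on the vector arrays and 6364 and 5604 on the HMGA2 arrays. The groups did not overlap, and E2F1 rose 1.4-fold (log2 0.49, SE 0.10, limma adjusted p = 0.00953). E2F2, a close relative, read 3647 and 3512, then 1429 and 1176, and fell 2.76-fold (log2 -1.47, SE 0.12, adjusted p = 0.000408). E2F3, the third activator, read 9649 and 10236, then 5447 and 6866, and fell 1.63-fold (log2 -0.70, SE 0.12, adjusted p = 0.00587). For both, each vector array lay above each HMGA2 array. After quantile normalization the differences were 0.68 for E2F1, -1.22 for E2F2 and -0.56 for E2F3, all past the threshold.

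Among the E2Fs that act with pocket proteins as repressors, E2F5 fell and E2F4 did not pass. E2F4, the main partner of RBL1 and RBL2 in resting cells, read 23710 and 21613, then 23952 and 25090 (log2 0.11, 95% interval -0.09 to 0.32, adjusted p = 0.307). E2F5 read 1607 and 1551, then 762 and 714, a 2.14-fold fall with no overlap (log2 -1.10, SE 0.11, adjusted p = 0.000826). The repressors that need no pocket protein were not called as deposited. They were E2F6 at 0.07, E2F7 at -0.10 and E2F8 at 0.17 log2, and in each the arrays of the groups overlapped. E2F6 was called higher after quantile normalization (0.30, adjusted p = 0.0442).

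The DP partners, which pair with an E2F to bind DNA, differed from each other. TFDP1 read 55884 and 63837 on the vector arrays and 83503 and 106664 on the HMGA2 arrays, and rose 1.58-fold (log2 0.66, SE 0.13, adjusted p = 0.00913). TFDP2 fell by 0.46 log2 (SE 0.14, adjusted p = 0.0406), a call that was lost after quantile normalization (-0.24, adjusted p = 0.234). No pocket protein was called under either scaling. RB1, the retinoblastoma protein gene, read 9066 and 9085, then 11067 and 9130, with 1 HMGA2 array close to the vector arrays (log2 0.15, 95% interval -0.12 to 0.41, adjusted p = 0.324). RBL1 differed by 0.07 (interval -0.13 to 0.27) and RBL2 by -0.07 (interval -0.47 to 0.33).

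Among the 5 cyclin genes, only CCND3 was called on the brightest probe. CCND3, a partner of CDK4 and CDK6, read 10104 and 12515, then 19456 and 24667, and rose 1.95-fold (log2 0.96, SE 0.15, adjusted p = 0.00364). CCND2, another D-type cyclin, read 504 and 515, then 416 and 352, and did not pass (log2 -0.41, adjusted p = 0.124). CCNE1, the cyclin that activates CDK2 at S phase entry, read 11247 and 11050, then 9564 and 9609. Its groups did not overlap, but its difference of -0.22 (SE 0.08) did not pass (adjusted p = 0.0593), and it was -0.09 after quantile normalization. CCNE2 gave -0.24 (adjusted p = 0.0926) and did not pass after quantile normalization either (adjusted p = 0.984). CCNA2, which acts with CDK2 in S phase, read 19745 and 15954 on the vector arrays and 12894 and 16513 on the HMGA2 arrays, an overlap (log2 -0.28, SE 0.15, adjusted p = 0.187). A second CCNA2 probe differed far more, as given below.

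Of the 3 kinase genes, CDK2 rose under both scalings. CDK2, which phosphorylates pocket proteins and replication factors, read 38330 and 37301, then 53587 and 55671, and rose 1.44-fold (log2 0.53, SE 0.07, adjusted p = 0.00193). CDK4 read 96284 and 95003, then 101842 and 120312, and was not called as deposited (log2 0.21, adjusted p = 0.122), though it was after quantile normalization (0.28, adjusted p = 0.0339), and its other probe was called higher as deposited (0.37, adjusted p = 0.00596). CDK6 fell by 0.46 log2 (SE 0.09, adjusted p = 0.00792) and lost the call after quantile normalization (-0.25, adjusted p = 0.0524) and with the mean of its probes (-0.09, adjusted p = 0.536). CDC25A, the phosphatase that removes the inhibitory phosphate from CDK2, read 10445 and 10795, then 3452 and 4181. On its brighter probe it fell 2.8-fold with a wide gap between the groups (log2 -1.48, SE 0.11, adjusted p = 0.000316). In the whole group of E2F, RB and cyclin genes 4 of 22 rose and 6 fell, while quantile normalization gave 6 higher and 4 lower. These shares, 18.2% and 27.3% as deposited, lay near the 14.9% and 28.7% of all genes. The backgrounds after quantile normalization were 28.0% and 22.6%, so all genes also shifted towards higher calls.

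**Figure D2:**
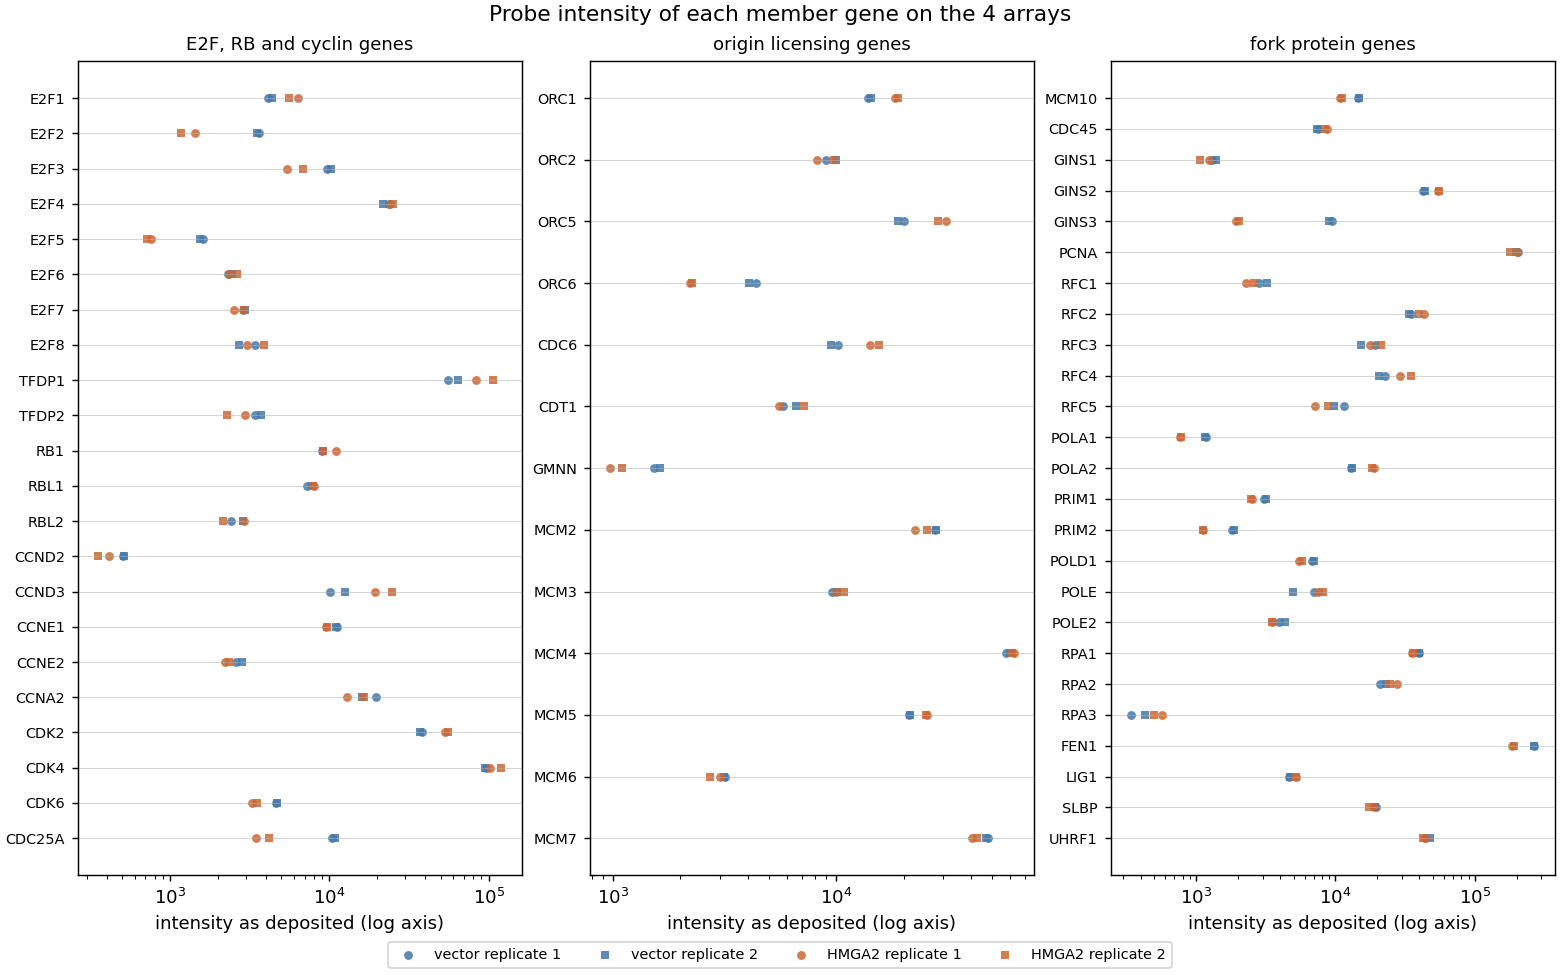
Intensity as deposited (horizontal, log axis) of each member on the 4 arrays, vector in blue and HMGA2 in orange, circles for replicate 1 and squares for replicate 2, in panels for the 3 gene groups. E2F2, E2F5, CDC25A, ORC6 and GINS3 have both orange points well to the left of both blue points, CCND3 and TFDP1 have them to the right, and the points of PCNA and CDT1 overlap.

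In the origin recognition complex, which marks where replication can start, subunits went both ways. ORC5 read 20124 and 18951, then 31047 and 28509, and rose 1.52-fold on its brighter probe (log2 0.61, SE 0.08, adjusted p = 0.00213), while its other probe was not called (0.17, adjusted p = 0.15). ORC1, the subunit that is degraded and made anew in each cycle, rose by 0.40 log2 (SE 0.07, adjusted p = 0.00727). ORC6 read 4371 and 4060, then 2211 and 2258, and fell 1.89-fold (log2 -0.91, SE 0.09, adjusted p = 0.0007). ORC2 differed by -0.08 with overlapping arrays (interval -0.35 to 0.19). The remaining subunits, outside the 60, were ORC4 at -1.56 (SE 0.10, adjusted p = 0.00018) and ORC3 at -0.55 (SE 0.08, adjusted p = 0.0033), ORC3 being named after its value was seen.

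Of the loading factors CDC6 and CDT1 and the inhibitor geminin, CDC6 was called higher and geminin lower. CDC6, which with CDT1 loads the helicase, read 10212 and 9461, then 14165 and 15480, and rose 1.51-fold with no overlap (log2 0.59, SE 0.09, adjusted p = 0.00307). CDT1 read 5787 and 6588, then 5517 and 7143, and the groups overlapped (log2 0.02, interval -0.32 to 0.37, adjusted p = 0.909). GMNN, which encodes geminin, the inhibitor of CDT1, read 1517 and 1620, then 967 and 1098, and fell 1.52-fold (log2 -0.61, SE 0.12, adjusted p = 0.0084). After quantile normalization GMNN stayed just past the threshold (-0.36, adjusted p = 0.0471).

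The 6 genes of the MCM2 to MCM7 ring, which form the helicase that unwinds DNA, lay close together, from -0.21 to 0.25 log2. MCM2 read 27688 and 27811, then 22544 and 25582 (log2 -0.21, SE 0.09, adjusted p = 0.102). MCM5 was the only 1 to be called, 1.19-fold higher (log2 0.25, SE 0.07, adjusted p = 0.0301), and it lost the call without any 1 of the 4 arrays (adjusted p up to 0.179). MCM7 was at -0.18, MCM6 at -0.13, MCM4 at 0.07 and MCM3 at 0.08, none past the threshold. In the licensing group as a whole 4 of 13 rose and 2 fell, with the same counts after quantile normalization. That is 30.8% and 15.4%, beside 14.9% and 28.7% of all genes as deposited and 28.0% and 22.6% after quantile normalization.

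Within the GINS complex, which joins CDC45 on the helicase, GINS3 stood far from the other subunits. GINS3 read 9410 and 9035 on the vector arrays and 1926 and 2028 on the HMGA2 arrays, a 4.67-fold fall (log2 -2.22, SE 0.09, adjusted p = 7.86e-05). This was the largest difference among the 60 under both scalings (-2.04 after quantile normalization), and it rests on 1 probe. GINS2 rose by 0.34 log2 (SE 0.07, adjusted p = 0.00948), a call lost without vector replicate 1 (adjusted p = 0.0542). GINS1 did not pass (-0.23, adjusted p = 0.188), and neither did GINS4, which is outside the 60 and was named after its value was seen (-0.05, adjusted p = 0.717). CDC45 was at 0.21 (adjusted p = 0.0743) as deposited and was called higher after quantile normalization (0.36, adjusted p = 0.0142). MCM10, which helps to start the helicase, fell by 0.41 (SE 0.08, adjusted p = 0.00692) and lost the call when array medians were subtracted (-0.18, adjusted p = 0.351).

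The sliding clamp did not differ detectably, and its loader subunits were spread. PCNA, the clamp that holds polymerases on DNA, read 202880 and 195553, then 201947 and 178380 (log2 -0.07, interval -0.27 to 0.13, adjusted p = 0.535). RFC4 read 22639 and 20361, then 29243 and 34919, and rose 1.49-fold (log2 0.57, SE 0.11, adjusted p = 0.00779). RFC2 rose by 0.28 (adjusted p = 0.0323), a call lost when either vector array or HMGA2 replicate 1 was left out. RFC5 fell by 0.42 as deposited (adjusted p = 0.0478) but not after quantile normalization (-0.28, adjusted p = 0.1). RFC1, the large subunit, was at -0.32 (adjusted p = 0.0654) and RFC3 at 0.18 (adjusted p = 0.35).

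The polymerase alpha-primase complex, which lays down the first primer and DNA of each fragment, held both a rise and falls. POLA2, its B subunit, read 12946 and 13225, then 18969 and 18325, and rose 1.42-fold (log2 0.51, SE 0.07, adjusted p = 0.00278). POLA1, the catalytic subunit, read 1176 and 1149, then 762 and 782, and fell 1.51-fold (log2 -0.59, SE 0.12, adjusted p = 0.00855). PRIM2, the large primase subunit, read 1814 and 1861, then 1129 and 1124, and fell 1.63-fold (log2 -0.71, SE 0.10, adjusted p = 0.00247). In these 3 genes the groups did not overlap, and all 3 were called under both scalings. The small primase subunit PRIM1 (-0.32, adjusted p = 0.0257) and POLD1, the catalytic subunit of polymerase delta (-0.29, adjusted p = 0.0318), fell as deposited and lost the call after quantile normalization (-0.09 and -0.13). POLE2 was at -0.23 (adjusted p = 0.0826).

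Of the enzymes that finish the lagging strand, FEN1, the flap nuclease, read 266045 and 267176, then 184678 and 191785, and fell 1.42-fold on its brighter probe (log2 -0.50, SE 0.06, adjusted p = 0.00166). LIG1, the ligase, was at 0.15 (adjusted p = 0.184) and was called higher after quantile normalization (0.34, adjusted p = 0.0173). The RPA genes, which encode the single-strand DNA binding complex, were not called as deposited: RPA1 at -0.15, RPA2 at 0.25 and RPA3 at 0.48. RPA3 was called after quantile normalization (0.65, adjusted p = 0.00705). It was dim, reading 340 and 429, then 570 and 496, at percentile 14.1 of level among tested genes. Its SE as deposited, 0.20, was the largest of the members. SLBP, which binds histone mRNA, and UHRF1, which keeps DNA methylation at the fork, were both at -0.09 and not called under either scaling. In the fork group 4 of 25 rose and 8 fell, and after quantile normalization 8 were higher and 5 lower. The shares as deposited, 16% and 32%, lay near the 14.9% and 28.7% of all genes, and the backgrounds after quantile normalization were 28.0% and 22.6%.

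**Figure D3:**
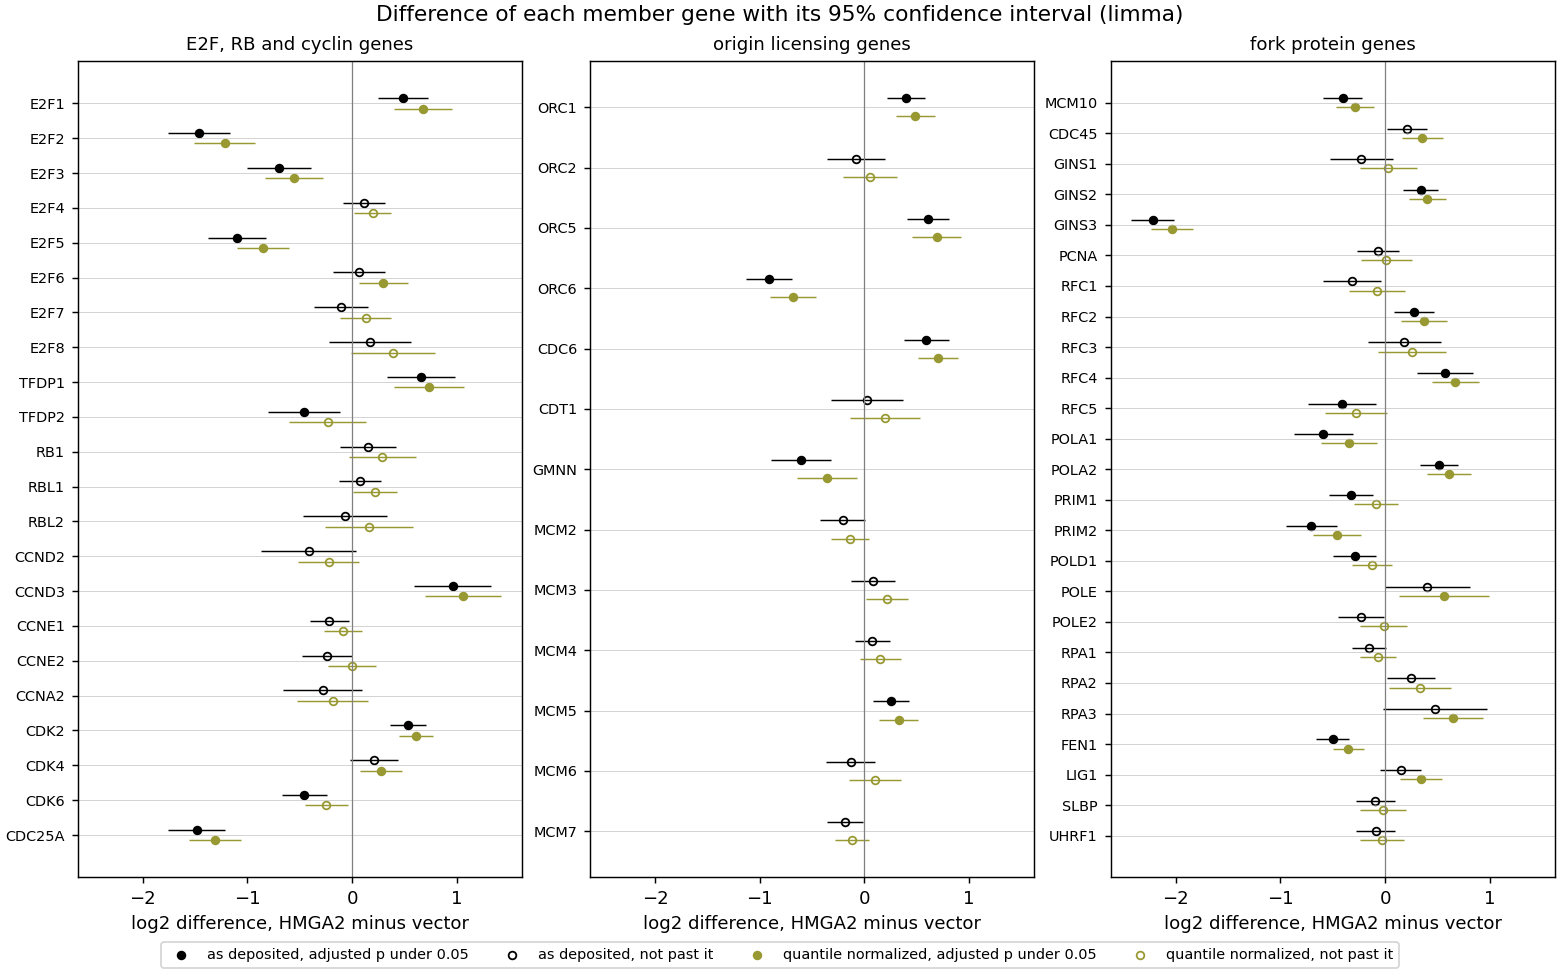
Log2 difference (HMGA2 minus vector) of each member with its 95% confidence interval from limma, as deposited in black and quantile normalized in olive, filled where the adjusted p is under 0.05. Quantile normalization moves most points to the right. The members called under both scalings, 12 higher and 11 lower, keep filled points on the same side of 0. Of all genes, 14.9% were called higher and 21.9% lower under both scalings.

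A second probe was present for 14 members, and it changed the picture for several. The other 46 members, E2F1, E2F2, E2F3 and E2F5 among them, rest on 1 probe each and could not be checked this way. The probes of a gene differed in the same direction in 10 of the 14 and by 0.5 log2 or more in 5. The less bright CCNA2 probe read 14364 and 16894 on the vector arrays and 3080 and 4044 on the HMGA2 arrays (log2 -2.14, SE 0.15, adjusted p = 7.77e-05 in limma's fit of all probes), beside -0.28 on the brighter probe. With the mean of both, CCNA2 was lower by 1.21 log2 (adjusted p = 0.000329). POLE, the catalytic subunit of polymerase epsilon, was at 0.40 on its brighter probe (7067 and 4981, then 7542 and 8166, adjusted p = 0.0883). It was at -1.19 on the other probe (3989 and 2861, then 1275 and 1716, adjusted p = 0.00286). After quantile normalization POLE was called higher on the brighter probe (0.56, adjusted p = 0.0445) and lower on the other (-0.95, adjusted p = 0.0177). FEN1 gave -0.50 on the brighter probe and 0.21 on the other (adjusted p = 0.0544), and CDK6 gave -0.46 and 0.29 (adjusted p = 0.25). After quantile normalization the FEN1 probes were called in opposite directions, at -0.35 (adjusted p = 0.00665) and 0.29 (adjusted p = 0.0144). The brighter CDK6 probe was then not called (-0.25, adjusted p = 0.0553), and the other was called higher (0.47, adjusted p = 0.0262). CDC25A gave -1.48 and -0.44, both called as deposited, but its other probe lost the call after quantile normalization (-0.20, adjusted p = 0.115). CCNE2 gave -0.24, not called, and -0.43 on the other probe (adjusted p = 0.0123), which also lost its call after quantile normalization (-0.19, adjusted p = 0.132). The other MCM10 probe, at -0.45 as deposited (adjusted p = 0.0389), lost its call after quantile normalization too (-0.20, adjusted p = 0.268). Whether the probes of a gene detect different transcripts was not tested, and no single value stands for CCNA2, POLE, CDC25A, FEN1 or CDK6.

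**Figure D4:**
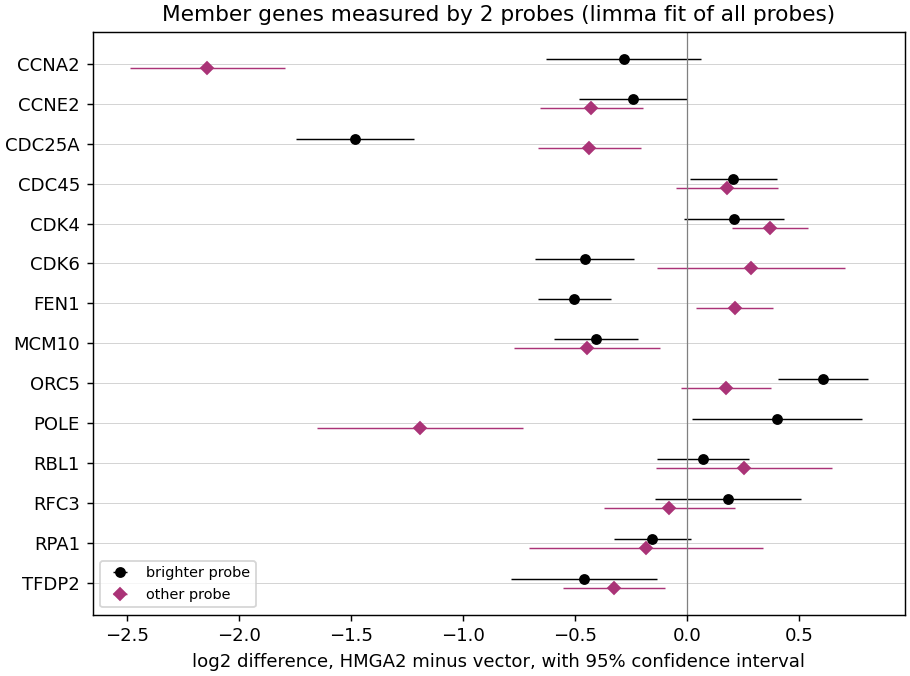
Log2 difference (HMGA2 minus vector) with 95% confidence interval for the 14 members with 2 probes, the brighter probe as a black circle and the other as a purple diamond. Values are as deposited. The probes of CCNA2 (-0.28 and -2.14) and POLE (0.40 and -1.19) lie farthest apart, while those of MCM10 (-0.41 and -0.45) lie together.

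A wider list of 47 other replication and E2F target genes, of which 45 were tested, gave the same kind of mixture. Of these, 9 rose and 12 fell, beside 14.9% and 28.7% of all genes, with a median of -0.05 log2. After quantile normalization 14 were higher and 10 lower, beside 28.0% and 22.6%. Beside ORC4, the largest differences were falls of TIMELESS (-1.17, SE 0.10, adjusted p = 0.000403), a fork protection protein, RBBP4 (-1.05, SE 0.17), a histone-binding partner of RB complexes, and DSCC1 (-1.03, SE 0.09), a subunit of an alternative clamp loader. The largest rises, named after their values were seen, were CHTF18 (0.81), which sits in the same alternative clamp loader as DSCC1, and TICRR (0.59), which helps CDC45 onto the helicase.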

How the data were processed

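RNA of DLD-1 cells was measured on 4 single-colour arrays, 2 per group. Per the labels' protocols, total RNA was amplified to aminoallyl RNA and coupled to Cy5. The deposited values are probe intensities on a linear scale, and the normalization used by the authors is not stated in the labels. Intensities under 1 were set to 1 and log2 was taken. Of 31741 probes, 24740 name 1 gene, 977 several and 6024 none, and symbols were updated through the RefSeq table of GRCh38.p14 for 1948 of them. The brightest probe stood for each gene. The dimmest 4584 genes, under an intensity of 234, were left out, and the other 13752 entered a limma fit (version 3.58.1, R 4.3.3; lmFit, eBayes with a trend, Benjamini-Hochberg adjustment over all tested genes). The code was tested on simulated data.

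The members and gene lists were chosen with earlier results of these data known. Values on every array were given for members called with a difference of at least 0.5 log2 and, whatever their values, for E2F1 to E2F4, RB1, CCNE1, CCNA2, CDK2, CDK4, CDC6, CDT1, MCM2 and PCNA. From each other list up to 4 called genes with the largest differences were named. An exact permutation test of 2 arrays against 2 cannot go below p = 0.333 and was not used. Deviations of arrays with the same replicate number correlated at -0.197 over genes, so the numbers were not taken as pairs. Alternatives covered scaling, background, the dim filter, probe choice, the eBayes settings, the threshold, a replicate block and leaving out each array. Promoter sequences are from RefSeq (GRCh38.p14), and 51 of 60 members matched.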

Additional observations from a re-analysis of the deposited data

How the results depend on the processing

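Scaling and the threshold both moved the counts. For all genes, 2051 were higher and 3943 lower as deposited. The count of higher genes was 3844 after quantile normalization, 3715 with array medians subtracted, 3853 with normexp before quantile normalization and 1037 at an adjusted p of 0.01. The count of lower genes was 2479 with array medians subtracted and 1994 with quantile normalization at 0.01, an alternative added after seeing the data. Of the members, 16 were lower as deposited, 9 with array medians subtracted and 6 with quantile normalization at 0.01. In the wider replication list, 9 higher became 14 after quantile normalization, 14 with normexp and 5 at 0.01, and 12 lower became 7 with array medians subtracted. Without 1 array at a time, counts ran from 1661 to 1941 higher and 3558 to 3695 lower for all genes, 10 to 12 and 13 to 16 for members, and 7 to 9 and 12 to 13 for the wider list. With the replicate number as a block, 11 members were higher and 14 lower, with 1819 and 3510 of all genes and 9 and 12 of the wider list. With crossed numbers, added after seeing the data, these were 15 and 19, 2590 and 4619, and 9 and 12. Of the 28 called members, 18 kept their call in each alternative they were tested in, the 2 added later left aside, and 0 reversed. This covers 14 alternatives, but 13 for E2F5 and POLA1, which were too dim for the filter at the 50th percentile. The 10 others were TFDP2, CDK6, MCM5, MCM10, GINS2, RFC2, RFC5, PRIM1, POLD1 and FEN1. Kept calls were not counted over all genes, so whether members kept theirs more often than other genes is not known. FEN1 lost its call with array medians subtracted (-0.28) and with the mean of its probes (-0.14). The cause of these shifts was not tested. With 2 arrays a group, members that were not called differed by -0.41 to 0.48 log2 with SE up to 0.20.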

Other observations

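A list of 29 G2/M and mitosis genes, all tested, held 2 genes that rose and 12 that fell, beside 14.9% and 28.7% of all genes, with a median of -0.08 log2. After quantile normalization 8 were higher and 12 lower, beside 28.0% and 22.6%. With array medians subtracted 8 were higher and 6 lower, beside 3715 and 2479 of the 13752 genes tested. With quantile normalization at an adjusted p of 0.01, 2 were higher and 5 lower, beside 2028 and 1994, so the count of falls depended on the processing. The largest differences were falls of TTK (-1.31), ASPM (-1.20), HMMR (-1.03) and CDK1 (-0.87), all of which act in mitosis. The 2 that rose, named after their values were seen, were MYBL2, a transcription factor of the S and G2 phases, and BIRC5, which encodes survivin. MYBL2 read 7455 and 8038 on the vector arrays and 14433 and 12063 on the HMGA2 arrays (log2 0.77, SE 0.11, limma adjusted p = 0.00259). BIRC5 read 29422 and 26984, then 41913 and 37158 (log2 0.49, SE 0.09, adjusted p = 0.00738). FOXM1, which drives G2/M genes together with MYBL2 and was named after its value was seen, read 6449 and 6709, then 3881 and 4759, and fell (log2 -0.61, SE 0.12, adjusted p = 0.0075).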
